A study of Homo sapiens with 12 samples.

Results

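The miR-17-92 cluster and its paralogs were followed through small RNA sequencing of a melanoma line and its drug-resistant derivative. The members were the 6 precursor genes of miR-17-92 (MIR17, MIR18A, MIR19A, MIR20A, MIR19B1 and MIR92A1), the 3 of miR-106b-25 (MIR106B, MIR93 and MIR25), and MIR92A2, which encodes the same mature miRNA as MIR92A1 at another locus. They were found by gene name, and all 10 were present among the 1881 miRNA genes counted. A375 is a human melanoma cell line sensitive to dabrafenib, a BRAF kinase inhibitor. A375-BIR (BRAF inhibitor resistant) was derived from A375 by culture in increasing dabrafenib over weeks. Each line was kept for 48 h in 200 nM dabrafenib or in its vehicle, 0.1% DMSO, and 3 libraries were made from total RNA for each line and treatment, 12 in all. The labels call the 3 libraries of a group biological replicates. A375-BIR is 1 derivative, so a difference between the lines is a difference between these 2 cultures, and resistance cannot be told apart from other changes gathered during the selection.

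MicroRNAs repress messenger RNAs that pair with their seed, a short stretch near the 5′ end, so miRNAs with the same seed act on overlapping targets. MYC and E2F transcription factors switch on the miR-17-92 cluster, which favours proliferation and survival and is amplified in some lymphomas, and miR-106b-25 is transcribed with its host gene MCM7, a replication factor under E2F control. BRAF inhibitors shut off the MAPK pathway on which melanoma cells with mutant BRAF depend for proliferation, and miRNAs of both clusters have been described as growth-promoting in many tumours, melanoma among them.

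The members fall into 4 seed groups that run across the clusters, and their mature sequences are shown because the comparisons below are made by seed as well as by cluster. The sequences are from RefSeq (GRCh38.p14), which held a mature sequence for all 10 members, and are written 5′ to 3′ with the seed (bases 2 to 8) in capitals. The miR-17 group targets the cell cycle inhibitor CDKN1A, among others. It takes in miRNAs of both clusters, here with miR-106a, a near-copy of miR-17 on chromosome X.
miR-17-5p: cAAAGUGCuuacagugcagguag
miR-20a-5p: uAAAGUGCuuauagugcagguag
miR-93-5p: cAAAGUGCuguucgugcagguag
miR-106b-5p: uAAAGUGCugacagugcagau
miR-106a-5p: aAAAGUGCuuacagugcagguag
The miR-18 group, which acts on the TGF-beta pathway, and the miR-19 group, which contributes to the cluster's growth-promoting action, have members in miR-17-92 but none in miR-106b-25.
miR-18a-5p: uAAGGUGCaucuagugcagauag
miR-19a-3p: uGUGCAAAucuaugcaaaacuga
miR-19b-3p: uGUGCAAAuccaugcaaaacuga
The miR-92 group targets the pro-apoptotic gene BCL2L11 and again joins the clusters.
miR-92a-3p: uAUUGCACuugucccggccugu
miR-25-3p: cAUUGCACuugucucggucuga

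Outside the seed the relatives differ. Compared position by position from the 5′ end, miR-17-5p and miR-20a-5p are the same at 21 of 23 positions, miR-17-5p and miR-106a-5p at 22 of 23, miR-93-5p and miR-106b-5p at 16 of 21, and miR-92a-3p and miR-25-3p at 18 of 22. MIR92A1 and MIR92A2 give an identical miR-92a-3p from hairpins that otherwise differ, shown here with the shared mature miRNA in capitals because reads of it cannot be traced to either gene.
MIR92A1 hairpin: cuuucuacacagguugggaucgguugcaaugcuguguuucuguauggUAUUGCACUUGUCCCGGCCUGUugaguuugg
MIR92A2 hairpin: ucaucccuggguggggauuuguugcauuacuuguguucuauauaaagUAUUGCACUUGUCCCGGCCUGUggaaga
The longest stretch the 2 hairpins share is 23 bases. RSEM, with which the authors made the counts, divides such reads between the genes that could have given them, and it does not separate the 5p and 3p arms of a hairpin, so each value below belongs to a gene and not to a mature miRNA.

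The genes lie at 3 loci (hg38). The miR-17-92 cluster spans 787 bases of the plus strand of chromosome 13 (91350605 to 91351391) inside the noncoding host gene MIR17HG. Of the 11 MIR17HG transcripts that span it, 8 carry it in an intron and 3 in an exon. The miR-106b-25 cluster spans 515 bases of the minus strand of chromosome 7 (100093560 to 100094074) inside MCM7. MIR106B and MIR25 are intronic in all 9 MCM7 transcripts that span them, and MIR93 is intronic in 8 and exonic in 1. MIR92A2 (chromosome X, 134169538 to 134169612, minus strand) belongs to the miR-106a-363 cluster, and is exonic in all 3 transcripts of an unnamed noncoding gene.

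Sequencing depth limits what can be read for the rarer members. The expected counts of all miRNA genes summed to 77264, 121802 and 86898 in the A375 libraries in DMSO, and to 47507, 51532 and 36955 in dabrafenib. In A375-BIR they summed to 106427, 120625 and 122792 in DMSO and to 35070, 59899 and 47607 in dabrafenib. Levels are given as CPM, counts scaled by the total of the tested genes and by edgeR's TMM (trimmed mean of M-values) factor. A library without a count for a gene could still hold up to 3 counts' worth, which is 20.7 CPM in the library where this limit is lowest and 99.7 CPM where it is highest (A375 in dabrafenib, replicate 3), and such limits cover counting error only. After the filter on low counts, 175 genes were tested, among them 8 of the 10 members. MIR19A and MIR19B1 fell below the filter.

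Of the 12 libraries, A375-BIR in DMSO replicate 3 stood apart from the others of its group. The chi-square over its degrees of freedom, which is near 1 for counting noise alone, was 29.4 and 32.1 between it and replicates 1 and 2, and 2.50 between those. In the other groups it ran from 3.36 to 14.2. No label sets this library apart.

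The libraries were checked against markers of cell types. Of 9 miRNAs listed for melanocytes and melanoma, 8 had counts, with MIR146A the most abundant and MIR514A1 at 0. Their summed level averaged 27288 CPM in A375 in DMSO and 23277 CPM in dabrafenib, but 1316 and 2167 CPM in A375-BIR. MIR146A carried most of this sum, with 24296 CPM in DMSO in A375 against 1117 in A375-BIR. MIR204 stood at 1707 and 134 CPM there, while MIR211 stood at 20.6 and 20.1 CPM in DMSO and at 181 and 74.3 CPM in dabrafenib. With dabrafenib the list moved in both directions in A375, where MIR146A fell to 14834 CPM (edgeR, −0.71 ± 0.19, adjusted p 0.0149) and MIR204 rose to 6100 CPM (1.84 ± 0.29, adjusted p 0.000289). The MIR509 copies, which are not separate markers, rose as well, MIR509-1 and MIR509-2 with the same value of 0.80 ± 0.23 (adjusted p 0.0217) and MIR509-3 with 0.81 ± 0.26 (adjusted p 0.0317). In A375-BIR MIR146A stood at 1653 and MIR204 at 304 CPM in dabrafenib. Of the epithelial markers, 5 of 7 had counts (15.0 to 263 CPM summed, MIR205 highest, MIR429 and MIR203A at 0), and of the blood markers 4 of 5 (26.1 to 282 CPM summed, MIR150 highest, MIR451A at 0). All 5 muscle markers had counts, at 0 to 63.1 CPM summed with MIR1-2 highest, and MIR126 of endothelium stood at 0 to 62.2 CPM. The liver marker MIR122 and the 3 neuronal copies of MIR124 had no count. The blood markers averaged 68.6 CPM in A375 in DMSO (47.3 to 98.7) and 180 CPM in dabrafenib (26.1 to 282), which overlap. In A375-BIR they averaged 28.7 CPM in DMSO (highest library 31.4) and 219 CPM in dabrafenib (lowest 191). MIR150 of this list was called higher with dabrafenib in A375-BIR (edgeR, 2.85 ± 0.83, adjusted p 0.0281). The epithelial markers averaged 63.9 and 191 CPM in A375, with the treatments apart, as they were for 44.0% of single tested genes. Few reads lie behind this, since 3 counts alone make 78.2 to 99.7 CPM in the treated A375 libraries. In A375-BIR they averaged 75.3 CPM in DMSO (70.6 to 83.0) and 120 CPM in dabrafenib (15.0 to 263), which overlap. Markers thus moved with line and with treatment, and their part in the members' values was not tested. In these bulk samples, fewer cells with a miRNA and less of it per cell cannot be told apart.

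The clusters are each transcribed as 1 primary transcript, yet processing and turnover set the level of each mature miRNA separately, so members of 1 cluster need not be equally abundant. Sorted by level per base of precursor, 5 members were abundant and 5 rare in reads. The libraries were made by adapter ligation and PCR, and how evenly these captured different sequences was not tested. The mean over the 12 libraries was 83.7 CPM per base for MIR93, 76.7 for MIR92A1, 62.2 for MIR25, 61.7 for MIR92A2 and 49.1 for MIR106B. It was 2.21 CPM per base for MIR20A, 1.72 for MIR17, 1.05 for MIR18A, 0.530 for MIR19B1 and 0.0488 for MIR19A. All 3 genes of miR-106b-25 were thus in the abundant set, and of miR-17-92 MIR92A1 alone.

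The order of the abundant members differed between groups. MIR93 came first in A375-BIR, at 119 ± 35.9 CPM per base in DMSO and 104 ± 54.5 in dabrafenib (mean ± SD, n = 3). In A375-BIR DMSO replicate 3, however, MIR92A1 (122 CPM per base) and MIR92A2 (95.5) stood above MIR93 (78.1), and without that library the DMSO means were 140 for MIR93 and 68.9 for MIR92A1. In dabrafenib the first place of MIR93 rested on A375-BIR replicate 3 (162 CPM per base), without which the means were 74.8 for MIR93 and 78.5 for MIR92A1, and in replicate 1 MIR93 (53.6) stood below MIR92A1 (82.5), MIR92A2 (60.3) and MIR25 (56.6). MIR92A1 came first in A375 in DMSO (73.5 ± 11.1) and MIR25 in A375 in dabrafenib (79.0 ± 8.77), though in replicate 3 of the latter MIR92A1 (76.0) stood above MIR25 (75.2). Neighbours in this order mostly differed by less than the larger of their SDs. The exceptions were MIR92A1 above MIR92A2 in A375 in both treatments (73.5 against 59.0 in DMSO, 71.5 against 57.7 in dabrafenib), and MIR92A2 above MIR106B in A375-BIR in dabrafenib (58.8 against 45.0). The places of MIR92A1 and MIR92A2 depend on how RSEM divided their shared reads, so the order between them, and of each against the other members, is that of the divided counts. The step from the fifth member down to the sixth was far beyond the SDs in every group.

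Within the miR-17-92 cluster MIR92A1 held nearly all the counts. Its share of the cluster's expected counts averaged 93.3% over the 12 libraries and ran from 87.8% to 97.5%. The other 5 genes together averaged 383 ± 166 CPM in A375 in DMSO, 195 ± 45.1 in A375 in dabrafenib, 618 ± 159 in A375-BIR in DMSO and 509 ± 126 in A375-BIR in dabrafenib (SD, n = 3). The cluster's total therefore followed MIR92A1, whose reads are shared with MIR92A2.

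**Figure D1:**
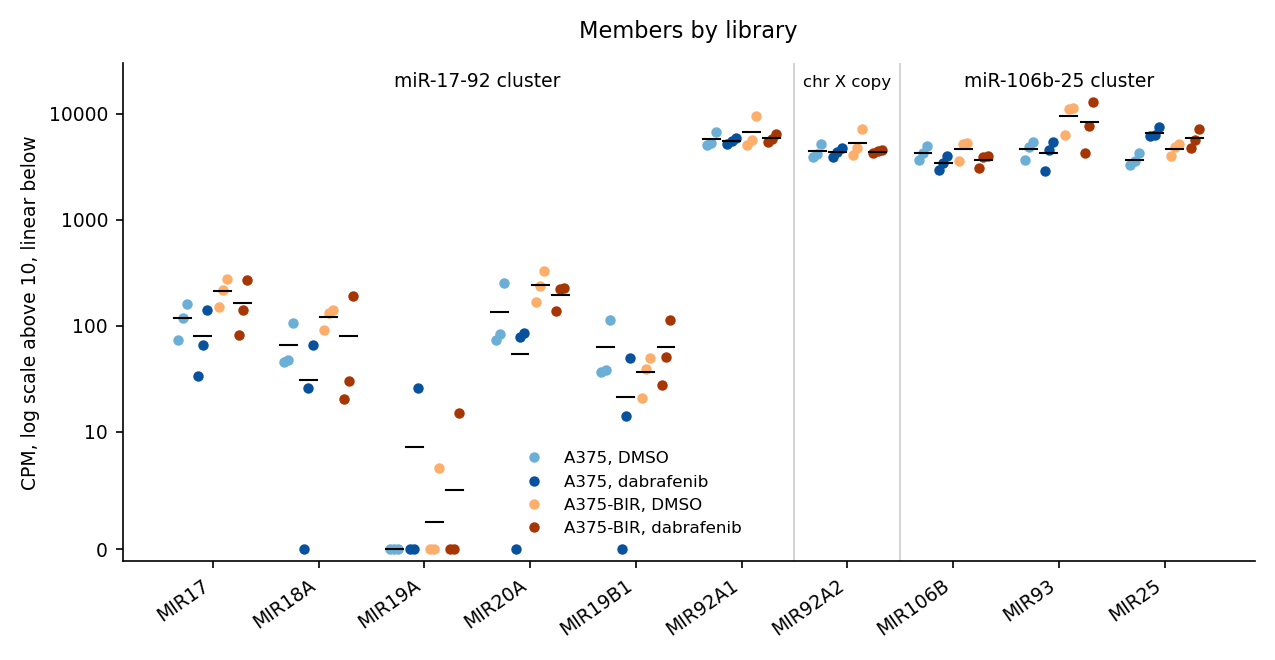
Level of each member in each of the 12 libraries, in CPM with TMM scaling, on an axis that is logarithmic above 10 and linear below; colours mark line and treatment, and bars mark the group means. MIR92A1, MIR92A2, MIR106B, MIR93 and MIR25 lie at 2891 CPM or more, and the other 5 members at 329 CPM or less, in every library.

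The first comparison set A375 against A375-BIR, the contrast that asks which miRNAs differ in the resistant derivative. A cell that goes on dividing despite a BRAF inhibitor keeps its cell cycle genes active, and both clusters depend on transcription factors of the cell cycle. The miR-17 seed group, which restrains inhibitors of the cell cycle, is taken first, and the miR-92 seed group, linked to survival, after it. Fold changes are A375 over A375-BIR on the log2 scale, so that negative values mean lower in A375.

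MIR93 (ENSG00000207757.1), the most abundant gene of the miR-17 seed group, stood at 4825, 5376 and 3669 CPM in the A375 libraries in DMSO and at 11414, 11003 and 6245 CPM in those of A375-BIR. In dabrafenib it stood at 5476, 4542 and 2891 CPM in A375 and at 4288, 7686 and 12945 CPM in A375-BIR. All 3 A375 libraries in DMSO lay below all 3 of A375-BIR, while in dabrafenib the lines overlapped, with A375-BIR replicate 1 among the A375 values. Over both treatments MIR93 was lower in A375 by edgeR's quasi-likelihood test, with a log2 fold change of −1.0 ± 0.25 (SE) and a Benjamini-Hochberg adjusted p of 0.00347. It stayed past the threshold of 0.05 in all 21 alternative analyses, with adjusted p from 6.04e-14 to 0.0149. Without A375-BIR DMSO replicate 3, the lowest A375-BIR library in DMSO, the fold change was −1.13 (adjusted p 0.00299). Within treatments the values were −1.05 ± 0.35 (adjusted p 0.0238) in DMSO and −0.95 ± 0.36 (adjusted p 0.0419) in dabrafenib.

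These calls within 1 treatment were less firm than the one over both. In DMSO MIR93 was past the threshold in 15 of 22 alternatives (adjusted p 1.70e-06 to 0.0961). It was not without A375-BIR DMSO replicate 1 (0.0961) or 2 (0.0680), or without A375 DMSO replicate 1 (0.0518) or 3 (0.0845). The other calls lost in DMSO were those with DESeq2's size factors (0.0801), with its Wald test (0.0551) and without 4 genes that resemble ribosomal RNA, MIR663A, MIR663B, MIR3648-1 and MIR3648-2 (0.0615). In dabrafenib it was past the threshold in 13 of 22 (adjusted p 1.95e-07 to 0.277). Without A375-BIR dabrafenib replicate 3, the library with the highest value, the fold change was −0.48 (adjusted p 0.277). The call in dabrafenib was also lost without A375-BIR dabrafenib replicate 2 (0.0612), A375 DMSO replicate 1 (0.0537) or 2 (0.0502), and A375 dabrafenib replicate 2 (0.0935) or 3 (0.164), as well as with DESeq2's size factors (0.0859), its Wald test (0.0513) and without the rRNA-like genes (0.0643). In each of these fits the value stayed negative.

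MIR106B, which shares the seed and the primary transcript of MIR93, did not pass the test between the lines. It ranged from 3627 to 4989 CPM in A375 and from 3599 to 5247 CPM in A375-BIR in DMSO, and from 2924 to 3963 and 3114 to 4031 CPM in dabrafenib. The lines overlapped in both treatments. The log2 fold change over both treatments was −0.11 ± 0.14 (adjusted p 0.506), and in DMSO its sign changed to 0.039 with DESeq2's size factors. The value over both treatments was −0.18 without A375-BIR DMSO replicate 3.

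MIR20A (ENSG00000283762.1), a miR-17-92 gene of the same seed, was far rarer per base than MIR93. It stood at 251, 83.5 and 73.6 CPM in A375 and 236, 329 and 166 CPM in A375-BIR in DMSO. In dabrafenib it stood at 78.2, 84.6 and 0 CPM in A375 and at 137, 226 and 222 CPM in A375-BIR. In dabrafenib all 3 A375 libraries lay below all 3 of A375-BIR, also with the empty library at its limit of 99.7 CPM, and in DMSO A375 replicate 1 lay among the A375-BIR values. These levels rest on few reads, 0 to 3 counts in A375 and 5 to 15 in A375-BIR in dabrafenib, and 24 to 42 in A375-BIR in DMSO. No limit was set for the libraries with counts, so the gap in dabrafenib was not tested against counting error. Over both treatments MIR20A was lower in A375, with −1.33 ± 0.45 (edgeR, adjusted p 0.0188), and it was past the threshold in all 21 alternatives (adjusted p 0.000427 to 0.0459). Neither treatment passed alone, at −0.89 ± 0.47 (adjusted p 0.140) in DMSO and −1.77 ± 0.76 (adjusted p 0.0711) in dabrafenib. Without A375 DMSO replicate 1 both did, at −1.60 (0.0173) in DMSO and −1.77 (0.0371) in dabrafenib, against ranges over the alternatives of 0.0173 to 0.404 and 0.00939 to 0.191.

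MIR17 (ENSG00000284536.1), first gene of the miR-17-92 cluster, stood at 162, 118 and 73.6 CPM in A375 and 217, 278 and 149 CPM in A375-BIR in DMSO. In dabrafenib it stood at 65.2, 141 and 33.2 CPM in A375 and 81.9, 271 and 142 CPM in A375-BIR. The lines overlapped in both treatments, since the highest A375 library lay above the lowest of A375-BIR. Over both treatments MIR17 was lower in A375, with −1.01 ± 0.39 (edgeR, adjusted p 0.0357), but in only 13 of 21 alternatives (adjusted p 0.00703 to 0.182). The call was lost with DESeq2's size factors (0.0615) and DESeq2's Wald test (0.0982). It was also lost without A375-BIR DMSO replicate 2 (0.0803), A375-BIR dabrafenib replicate 2 (−0.71, 0.182), A375 DMSO replicate 2 (0.0601) or 3 (0.0705), or A375 dabrafenib replicate 1 (0.0814) or 3 (0.0890). The fold change was negative in every one of the 21.

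MIR106A, the near-copy of MIR17, is not a member but shares its reads, since both genes had fractional counts in 5 libraries. It gave −1.32 ± 0.50 over both treatments (edgeR, adjusted p 0.0340), past the threshold in 13 of 20 alternatives (0.00454 to 0.160) and in 6 of the 12 fits that leave out a library. The call was lost without A375-BIR DMSO replicate 2 (0.0803), A375-BIR dabrafenib replicate 2 (0.160), A375 DMSO replicate 1 (0.0518) or 3 (0.0657), or A375 dabrafenib replicate 1 (0.0782) or 3 (0.0723), and with DESeq2's Wald test (0.0588). The sum of the 2 genes, an alternative chosen after seeing the data, gave −1.11 (adjusted p 0.0171). A lower level in A375 was thus also found with the reads of both genes added up.

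MIR18A, the miR-18 seed gene, ranged from 0 to 105 CPM in A375 and from 20.2 to 191 CPM in A375-BIR, with 80 counts in all, and the lines overlapped in both treatments. Its log2 fold change over both treatments was −1.04 ± 0.64 (adjusted p 0.182), as large as that of MIR17 but with a wider error. That size depended on single libraries, since with each left out in turn it ran from −1.55 to −0.37. The miR-19 seed genes fell below the filter. MIR19A had 3 counts in all, and 9 of 12 libraries had none. MIR19B1 had 44.5 counts in all, 20 in A375 and 24.5 in A375-BIR. An exact permutation test, two-sided, with line labels exchanged within each treatment (400 arrangements, smallest possible p 0.005, 2 tests), gave p = 1.0 for MIR19A and p = 0.7 for MIR19B1. With the filter at 1 CPM in 3 libraries, edgeR gave over both treatments −0.59 ± 0.76 (adjusted p 0.654) for MIR19A and −0.62 ± 0.69 (adjusted p 0.580) for MIR19B1. With no filter the adjusted p was 1.00 and 0.848.

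MIR19B1 stood in opposite order in the treatments, A375 at 62.8 CPM against 36.6 for A375-BIR in DMSO, but at 21.3 against 63.6 CPM in dabrafenib. The difference in response at 1 CPM was −2.67 ± 1.36, with an unadjusted edgeR p of 0.0491 and an adjusted p of 0.518, and with no filter the adjusted p was 0.904. These values rest on 0 to 9.5 counts a library.

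In the miR-92 seed group no gene passed the test between the lines with TMM, though MIR92A2 did with total counts as the scaling. MIR92A1 ranged from 5130 to 6724 CPM in A375 and from 5087 to 9502 CPM in A375-BIR, and its log2 fold change over both treatments was −0.16 ± 0.15 (adjusted p 0.388). MIR92A2 gave −0.15 ± 0.14 (adjusted p 0.371) and MIR25 −0.083 ± 0.13 (adjusted p 0.589). The sign of MIR25 changed to 0.025 with DESeq2's size factors, and that of MIR92A1 to 0.025 without A375-BIR DMSO replicate 3, the library in which it stood highest. In DMSO alone, leaving out that library took MIR92A1 from −0.24 to 0.11 and MIR92A2 from −0.27 to 0.017.

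By count, 3 of the 8 tested members (MIR93, MIR20A and MIR17) were lower in A375 over both treatments and none was higher. Among all 175 tested genes 60.0% passed in either direction, 34.3% lower in A375 and 25.7% higher. The members' share was thus 3 of 8 against 34.3% in the lower direction and 3 of 8 against 60.0% in either, with 0 of 8 against 25.7% in the higher. With DESeq2's size factors 2 were called (not MIR17), against 59.4% of tested genes. The median log2 fold change was −0.58 over the 8 members and −0.11 over all tested genes. All 3 called genes carried the miR-17 seed, but with total counts as the scaling, which moved the median of all tested genes by −0.24, MIR106B of that seed (−0.34, adjusted p 0.0440) and MIR92A2 of the miR-92 seed (−0.40, adjusted p 0.0488) were called lower too, against 61.1% of tested genes. Over their 21 and 20 alternatives the adjusted p ran from 0.044 to 0.989 for MIR106B and from 0.0488 to 0.978 for MIR92A2.

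In DMSO 1 of 8 members passed (MIR93, lower in A375), against 46.3% of all tested genes (30.3% lower, 16.0% higher), and none with DESeq2's size factors, where 46.3% passed as well. The medians were −0.59 over the members and −0.16 over all tested genes. In dabrafenib 1 of 8 passed (MIR93, again lower), also against 46.3% (22.3% lower, 24% higher), with medians of −0.52 and −0.029. Of the members none passed there with DESeq2's size factors, against 44.0% of tested genes, and 4 with total counts (MIR17, MIR20A, MIR106B and MIR93), against 47.4%. Without A375-BIR DMSO replicate 3 the members called between the lines were MIR93, MIR20A and MIR17 over both treatments and MIR93 in each treatment. Groups did not overlap for 1 tested member in DMSO (MIR93), against 61.1% of tested genes, and for 1 in dabrafenib (MIR20A), against 50.3%.

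**Figure D2:**
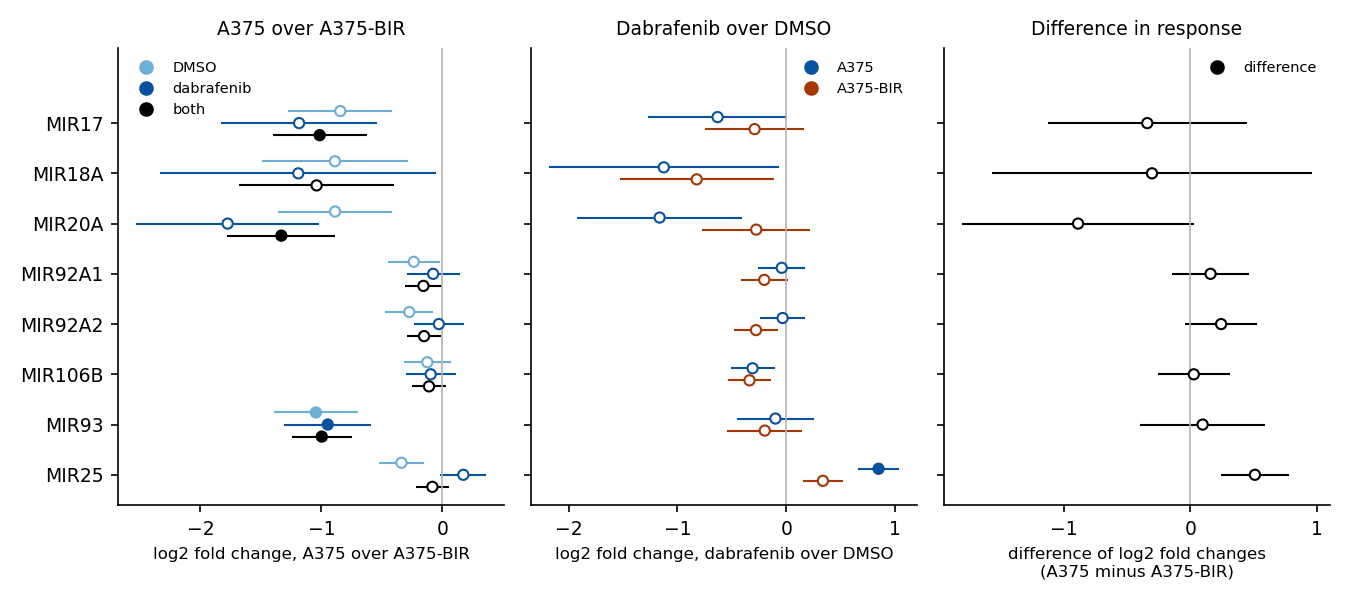
Log2 fold change of the 8 tested members from edgeR's quasi-likelihood fit, with bars of 1 SE, for A375 over A375-BIR (left), dabrafenib over DMSO (middle) and the response of A375 minus that of A375-BIR (right); filled points passed the test. MIR93, MIR20A and MIR17 are filled for the lines over both treatments (MIR17 not with DESeq2's size factors), and MIR25 for dabrafenib in A375, at 0.85, where with total counts as the scaling MIR25 stood at 0.36 and did not pass while MIR106B, at −0.81, did.

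The second comparison asked what 48 h of dabrafenib did in the sensitive line. Blocking BRAF in such cells lowers MAPK signalling, which sustains MYC and the cell cycle, and BCL2L11, a target of the miR-92 seed, is among the genes that MAPK signalling holds down. The miR-92 seed group is therefore taken first. Fold changes are dabrafenib over DMSO.

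MIR25 (ENSG00000207547.1), the miR-92 seed gene of miR-106b-25, stood at 4238, 3257 and 3585 CPM in the A375 libraries in DMSO and at 7484, 6122 and 6314 CPM in dabrafenib. All 3 treated libraries lay above all 3 in DMSO. MIR25 rose with a log2 fold change of 0.85 ± 0.19 (edgeR, adjusted p 0.00378). The call held without each of the 12 libraries in turn (0.75 to 0.96) and with the replicate number as a block (0.85, adjusted p 0.00842). Over all 22 alternatives the adjusted p ran from 0.00173 to 0.275 and was past the threshold in 17.

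The size of the MIR25 rise depended on the scaling and on the filter. TMM gave the dabrafenib-treated A375 libraries factors of 0.81, 0.69 and 0.82, and every other library one of 1.04 to 1.19. With DESeq2's size factors MIR25 stood at 0.65 (adjusted p 0.0537), and with total counts at 0.36 (adjusted p 0.162). The median log2 fold change of all tested genes was 0.14 with TMM, −0.058 with DESeq2's size factors and −0.36 with total counts. The other calls lost were those with a looser filter, 1 CPM or more in 3 libraries (0.44, adjusted p 0.187), with no filter (0.45, adjusted p 0.275) and with DESeq2's Wald test (0.65, adjusted p 0.0530). The treated libraries were also shallower, and the 4 rRNA-like genes took 1.92% of their counts against 0.182% in A375 in DMSO. Without these genes MIR25 stood at 0.82 (adjusted p 0.0233), and the part of depth in the result was not tested. In A375-BIR these genes took 0.217% of the counts in DMSO and 0.953% in dabrafenib.

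MIR92A1 and MIR92A2, of the same seed, did not pass the test. MIR92A1 ranged from 5241 to 5932 CPM in dabrafenib, within the 5130 to 6724 CPM of A375 in DMSO, at a log2 fold change of −0.042 ± 0.22 (adjusted p 0.888). MIR92A2 gave −0.034 ± 0.20 (adjusted p 0.893). They turned to 0.089 and 0.0895 without A375 DMSO replicate 3, and MIR92A2 to 0.024 without A375 dabrafenib replicate 1.

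In the miR-17 seed group no gene passed in A375 with TMM, while MIR106B did with total counts. MIR106B, of the same cluster in MCM7 as MIR25, stood at 4238, 4989 and 3627 CPM in DMSO and 3963, 3470.3 and 2924 CPM in dabrafenib. The treatments overlapped, and the log2 fold change was −0.31 ± 0.20 (adjusted p 0.292). It was called lower with total counts (−0.81, adjusted p 0.00616), with the looser filter (−0.73, adjusted p 0.0101) and with no filter (−0.72, adjusted p 0.0192), while the left-out libraries gave adjusted p from 0.208 to 0.587. MIR93 gave −0.10 ± 0.35 (adjusted p 0.851), MIR20A −1.16 ± 0.76 (adjusted p 0.292) and MIR17 −0.63 ± 0.64 (adjusted p 0.490). MIR18A gave −1.13 ± 1.06 (adjusted p 0.459). With each library left out in turn MIR20A ran from −1.55 to −0.45, MIR17 from −1.42 to −0.33 and MIR18A from −2.15 to −0.55.

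By count, 1 of 8 members (MIR25) passed for dabrafenib in A375, against 25.1% of all tested genes (18.3% higher, 6.86% lower), with medians of −0.20 over the members and 0.14 over all tested genes. With DESeq2's size factors none passed, against 26.3% of tested genes, and with total counts MIR106B in place of MIR25, against 35.4%. With the looser filter and with no filter MIR106B was also called in place of MIR25, against 9.85% and 5.60%. MIR25 was also the 1 tested member whose treatment groups did not overlap, which was so for 44.0% of tested genes.

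The third comparison put A375-BIR through the same 48 h of dabrafenib. These cells were selected to grow in the inhibitor, so the contrast asks what a resistant line's miRNAs do when the drug is present.

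In A375-BIR MIR25 stood at 4837, 5207 and 3956 CPM in DMSO and at 4752, 5640.5 and 7261 CPM in dabrafenib. The treatments overlapped, with the lowest treated library below the upper 2 untreated ones. The log2 fold change was 0.34 ± 0.19 (adjusted p 0.218), positive in all 22 alternatives and past the threshold in none. MIR93 gave −0.20 ± 0.35 (adjusted p 0.752), MIR106B −0.34 ± 0.20 (adjusted p 0.241), MIR20A −0.28 ± 0.49 (adjusted p 0.754) and MIR17 −0.29 ± 0.45 (adjusted p 0.717). MIR92A1 gave −0.20 ± 0.22 (adjusted p 0.557), MIR92A2 −0.28 ± 0.20 (adjusted p 0.335) and MIR18A −0.82 ± 0.71 (adjusted p 0.443). With each library left out in turn MIR18A ran from −2.18 to −0.34 and MIR17 from −0.90 to −0.029, none past the threshold.

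These values rest in part on A375-BIR DMSO replicate 3, 1 of the 3 untreated libraries. Without it none passed, and the values were 0.22 for MIR25, −0.40 for MIR93, −0.52 for MIR106B, −0.52 for MIR20A, −0.52 for MIR17, 0.087 for MIR92A1, −0.039 for MIR92A2 and −0.825 for MIR18A. The sign for MIR93 turned to 0.052 without A375-BIR DMSO replicate 1 and to 0.11 without A375-BIR dabrafenib replicate 1.

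By edgeR's test 0 of 8 members passed in A375-BIR, against 20.6% of all tested genes (13.1% higher, 7.43% lower), and 0 by DESeq2's Wald test. At an unadjusted p under 0.05 in edgeR's test there were 0 members, against 62 of all 175 tested genes. The medians were −0.28 over the members and −0.042 over all tested genes. The treatment groups overlapped for all 8, while they did not for 36.6% of tested genes.

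Whether the lines differed in the response was tested by the difference of the log2 fold changes, A375 minus A375-BIR. For MIR25 it was 0.51 ± 0.27 (edgeR, adjusted p 0.323), so the rise in A375 was not shown to differ from the smaller change in A375-BIR. Over the 21 alternatives this MIR25 difference ran from 0.0435 to 0.69, past the threshold in none. For MIR20A the difference was −0.89 ± 0.92 (adjusted p 0.710) and for MIR93 0.10 ± 0.50 (adjusted p 0.997). These were 0.59, −0.67 and 0.25 without A375-BIR DMSO replicate 3, and none passed. In all, 0 of 8 members passed, against 3.43% of tested genes (2.86% higher, 0.571% lower), and 0 by DESeq2's Wald test. At an unadjusted p under 0.05 there were 0 members, against 34 of all 175 tested genes. The medians were 0.063 over the members and 0.17 over all tested genes.

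Genes of 1 cluster come from 1 transcript, so the ratio of cluster members within a library shows unequal change without any scaling between libraries. MIR106B was taken as the reference in miR-106b-25, and these ratios were chosen after the values were seen and were not tested. MIR106B itself stood lower with dabrafenib, by −0.31 in A375 and −0.34 in A375-BIR, without passing the test. MIR93 over MIR106B was 1.14, 1.08 and 1.01 in A375 in DMSO and 2.20, 2.10 and 1.73 in A375-BIR in DMSO. In dabrafenib it was 1.38, 1.31 and 0.989 in A375 and 1.38, 1.91 and 3.30 in A375-BIR. The lines lay apart in DMSO, and in dabrafenib the lowest A375-BIR ratio fell at the top of the A375 range.

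MIR25 over MIR106B divided the libraries by treatment instead. It was 1.00, 0.653 and 0.988 in A375 in DMSO and 1.89, 1.76 and 2.16 in dabrafenib. In A375-BIR it was 0.932, 0.993 and 1.10 in DMSO and 1.53, 1.40 and 1.85 in dabrafenib. In both lines all 3 treated libraries lay above all 3 untreated ones, by a mean of 1.16 on the log2 scale in A375 and 0.65 in A375-BIR. Against MIR93 in place of MIR106B, the treatments lay apart in A375 alone: MIR25 over MIR93 ran from 0.606 to 0.977 in DMSO and from 1.35 to 2.18 in dabrafenib. In A375-BIR it ran from 0.424 to 0.633 in DMSO and from 0.561 to 1.11 in dabrafenib, which overlap.

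For comparison, MIR92A1 over MIR92A2 ran from 1.19 to 1.42 over the 12 libraries, with all groups overlapping. These genes share their reads, and both had fractional counts in 9 libraries, so this ratio describes the division of reads by RSEM as much as the genes.

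**Figure D3:**
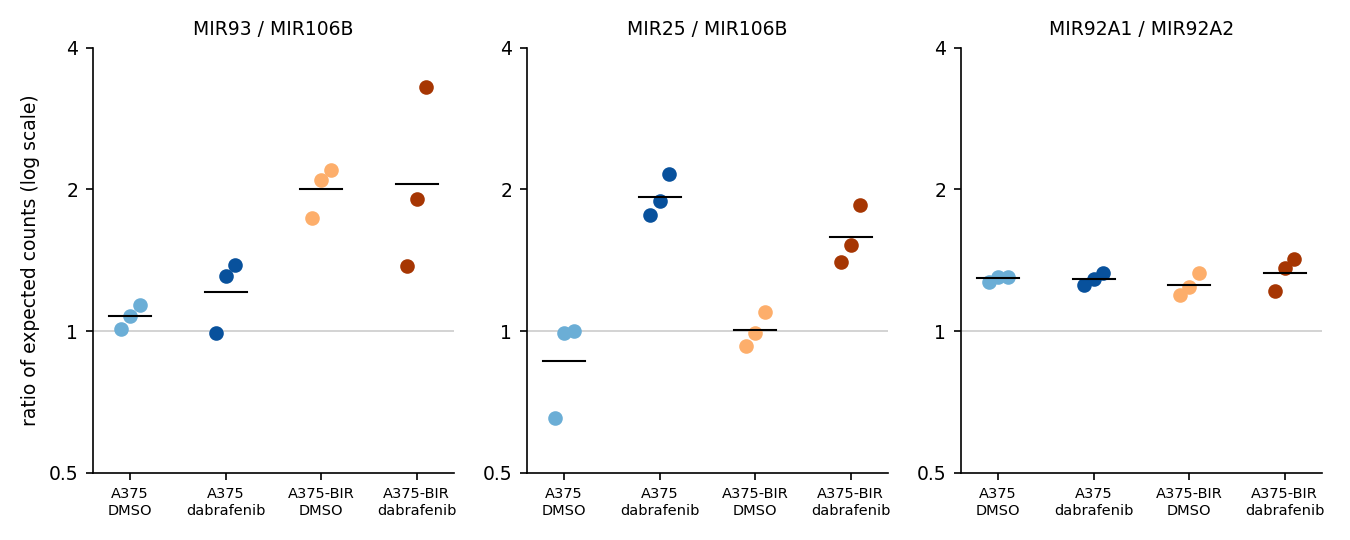
Ratio of expected counts within each library, on a logarithmic axis, for MIR93 over MIR106B, MIR25 over MIR106B and MIR92A1 over MIR92A2; points are the 3 libraries of each line and treatment and bars are means on the log scale. MIR93 over MIR106B lies between 1.01 and 1.14 in A375 in DMSO and between 1.73 and 2.20 in A375-BIR in DMSO, with the lines overlapping in dabrafenib, and MIR25 over MIR106B is higher in dabrafenib in every library of both lines.

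Added up by cluster and by seed, the members show how the counts divide between clusters and seeds, as far as gene counts stand for mature miRNAs. No test was made on these sums. The miR-106b-25 cluster summed to 12602 ± 1498 CPM in A375 in DMSO, 14396 ± 2407 in A375 in dabrafenib, 18899.6 ± 4417 in A375-BIR in DMSO and 17881 ± 6005 in A375-BIR in dabrafenib (SD, n = 3). In DMSO A375 reached 13622 CPM at most and A375-BIR started at 13799.5 CPM, in replicate 3, but with DESeq2's size factors the lines overlapped, at up to 15517 and from 12719 CPM. In dabrafenib they overlapped. Without A375-BIR DMSO replicate 3 the mean of that group was 21450 CPM. The miR-17-92 cluster summed to 6115 ± 779, 5772 ± 323, 7370 ± 2289 and 6386 ± 528 CPM in the same order, with the lines overlapping in both treatments (in dabrafenib not with total counts as the scaling). Without A375-BIR DMSO replicate 3, which stood at 9975 CPM, that group averaged 6067 CPM. With dabrafenib in A375 the miR-17-92 sum overlapped that in DMSO with TMM, and lay below it with total counts and with DESeq2's size factors.

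Within a library the clusters can be set against each other without any scaling. The log2 ratio of miR-17-92 to miR-106b-25 averaged −1.04 ± 0.36 in A375 in DMSO, −1.31 ± 0.32 in A375 in dabrafenib, −1.37 ± 0.79 in A375-BIR in DMSO and −1.43 ± 0.61 in A375-BIR in dabrafenib. In every library miR-106b-25 held the larger sum with the counts as RSEM divided them, and all compared groups overlapped. The ratio depends on that division, since miR-17-92 is mostly MIR92A1, which shares its reads with MIR92A2. In A375-BIR DMSO replicate 3 miR-17-92 stood at 9975 CPM, miR-106b-25 at 13799.5 and MIR92A2 at 7164. With the MIR92A2 reads added to it, miR-17-92 would hold the larger sum there. In DMSO the overlap rested on A375-BIR replicate 3, at −0.47. Replicates 1 and 2 stood at −1.92 and −1.73, below all 3 A375 libraries (−1.28 to −0.63), and averaged −1.82. With MIR92A1 taken out of miR-17-92, the ratio was lowest in A375 in dabrafenib (0.0116 to 0.0170), below both A375 in DMSO (0.0209 to 0.0432) and A375-BIR in dabrafenib (0.0180 to 0.0377). The 5 genes had 7.5, 8.5 and 4.5 counts in the A375 libraries in dabrafenib, so this separation rests on few reads.

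By seed, the miR-17 group summed to 9162 ± 1584 CPM in A375 in DMSO, 7890 ± 1891 in A375 in dabrafenib, 14691 ± 3927 in A375-BIR in DMSO and 12356 ± 4808 in A375-BIR in dabrafenib. MIR93 and MIR106B made up nearly all of it, with mean shares of the counts of 58.4% and 39.0% over the libraries. The miR-92 group summed to 13854 ± 1419, 16547 ± 502, 16759 ± 3439 and 16169 ± 793 CPM in the same order. Without A375-BIR DMSO replicate 3 that group averaged 16958 CPM for the miR-17 group and 14827 CPM for the miR-92 group. The higher miR-92 sum with dabrafenib in A375 was not kept under another scaling. It ran from 15997 to 16981 CPM against 12794 to 15466 in DMSO with TMM, from 11085 to 13964 against 13955 to 17083 CPM with total counts, and overlapped with DESeq2's size factors. The miR-17 sums of the lines overlapped in both treatments with TMM and with DESeq2's size factors, and lay apart in both with total counts. By replicate number in DMSO, though no label pairs the replicates, the miR-17 sum with TMM was lower in A375 each time. In replicates 1 to 3 it was 9476 against 17058, 10565.5 against 16857 and 7444 against 10159 CPM. The group means reached at most 121 CPM for the miR-18 group and 68.6 CPM for the miR-19 group. The log2 ratio of the miR-92 to the miR-17 group was 0.61 ± 0.40, 1.10 ± 0.39, 0.21 ± 0.71 and 0.46 ± 0.54, with all compared groups overlapping. In DMSO it was 0.49, 0.28 and 1.05 in A375 replicates 1 to 3 and −0.28, −0.11 and 1.02 in those of A375-BIR. Compared by replicate number it was higher in A375 each time, though by little in replicate 3. Leaving out replicate 3 of A375-BIR but not of A375, a choice made after seeing the data, brought the A375-BIR mean to −0.20. The lines then lay apart.

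**Figure D4:**
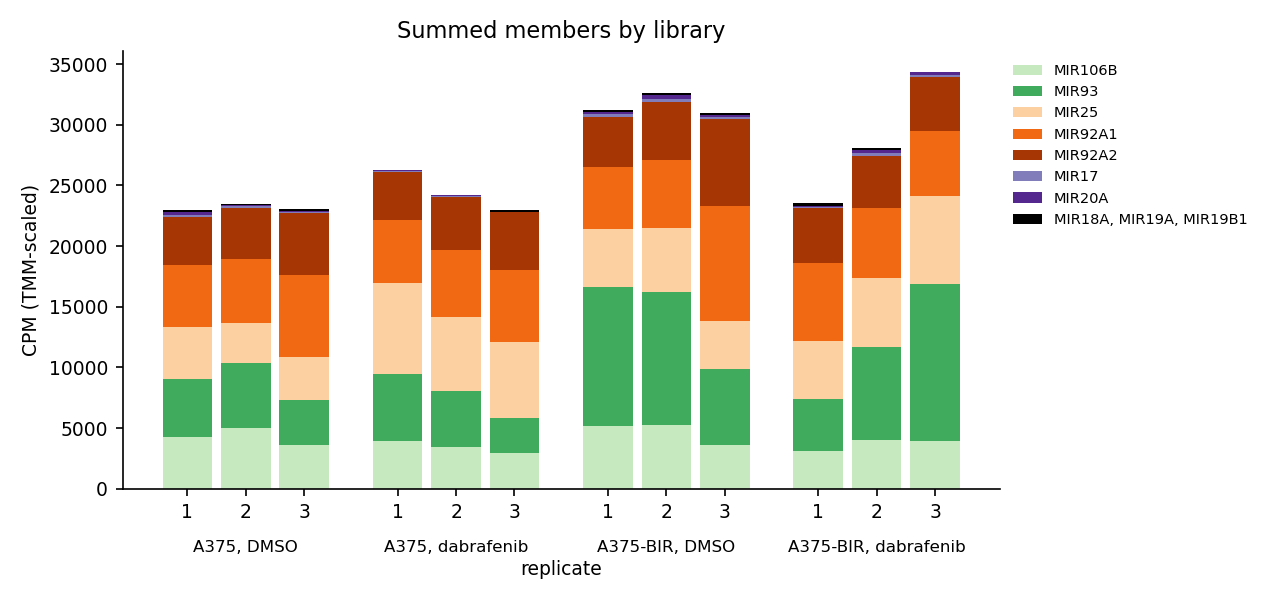
Stacked levels of the 10 members in each library, in CPM with TMM scaling, grouped by line and treatment; greens are the abundant miR-17 seed genes, oranges the miR-92 seed genes, and the thin top bands the rare genes. In DMSO the total runs from 22939.6 to 23443 CPM in A375 and from 30939 to 32659.9 CPM in A375-BIR.

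The 10 members together held 2.51% ± 0.03 of all counts in A375 in DMSO, 1.89% ± 0.23 in A375 in dabrafenib, 3.45% ± 0.20 in A375-BIR in DMSO and 3.05% ± 0.56 in A375-BIR in dabrafenib. The lines did not overlap in either treatment on this scale, while in CPM with TMM scaling they overlapped in dabrafenib (22946 to 26297 CPM in A375, 23543 to 34388 in A375-BIR).

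The paralogs on chromosome X show how far the second copies were used. The miR-106a-363 cluster repeats the order of miR-17-92, and its genes were nearly silent apart from those that share reads with chromosome 13. MIR18B had 1 count and MIR20B 4 counts in the 12 libraries, against 80 for MIR18A and 168 for MIR20A, from which they can be told by sequence. MIR363, of the miR-92 seed, had 16 counts, and MIR32, a miR-92 seed gene on chromosome 9, had 11. The copies whose reads are shared had more, with 106.5 counts for MIR106A against 153.5 for MIR17, 22.5 for MIR19B2 against 44.5 for MIR19B1, and 4581 for MIR92A2 against 5894 for MIR92A1.

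MYC not only drives miR-17-92 but also represses other miRNAs, among them let-7, miR-26, miR-29, miR-30 and miR-34 genes, many of which hold growth back. Of a list of 27 such genes, 22 were tested. Over both treatments 5 were higher and 14 lower in A375, against 25.7% and 34.3% of all tested genes, with a median log2 fold change of −0.50 beside −0.11 over all tested genes. The 14 are not all separate miRNAs, since gene copies of the same miRNA are each counted. These are MIRLET7A1, MIRLET7A2 and MIRLET7A3 (−0.50, −0.51 and −0.50), MIR26A1 and MIR26A2 (−0.42 and −0.43), and MIR30C1 and MIR30C2 (−1.26 and −1.43). Copies are each counted among all tested genes too. In DMSO 4 were higher and 12 lower, against 16.0% and 30.3%, and in dabrafenib 3 and 8, against 24% and 22.3%. The genes at the ends of the list over both treatments were MIR30A (−2.33 ± 0.14, adjusted p 2.56e-09) and MIR34A (−1.62 ± 0.25, adjusted p 6.39e-05) at the low end, and MIRLET7D (1.05 ± 0.13, adjusted p 1.42e-05) and MIR30B (1.26 ± 0.20, adjusted p 6.47e-05) at the high end. With dabrafenib 1 gene of the list fell in A375, against 6.86% of tested genes, and 0 rose, against 18.3% (median 0.12 beside 0.14 over all tested genes). In A375-BIR 1 rose (MIR150), against 13.1%, and 0 fell, against 7.43% (−0.14 beside −0.042), and for the difference in response the median was 0.23 beside 0.17.

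Among the other tested genes, those whose level most resembled the miR-17-92 sum were found by Pearson's r of log2 CPM over the 12 libraries, which share their scaling factors and their line and treatment groups. The nearest of 166 compared were MIR1248 (r 0.85), MIR26A1 (0.80), MIR26A2 (0.79), MIR125A (0.79) and MIRLET7E (0.75), where the median gene had r 0.15. A375-BIR DMSO replicate 3, with 9975 CPM the highest in this sum, weighed on the order. Without it, a choice made after seeing the data, these had r 0.81, 0.55, 0.54, 0.47 and 0.48 over 11 libraries. The nearest were then MIR1248, MIR26B (0.79), MIR191 (0.59), MIR26A1 and MIR125B1 (0.55), so 2 of the 5 stayed among them. The sum followed here is mostly MIR92A1.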

How the data were processed

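The authors deposited RSEM 1.2.25 expected counts (hg38) for each miRNA gene and library, without normalization, and 1879 of 1881 genes matched GENCODE v44. All 12 libraries were used. Rounded counts were fitted with edgeR 4.0.16 (R 4.3.3), with 1 mean per line and treatment. Its filterByExpr left 175 genes, TMM set the scaling, and quasi-likelihood p-values were adjusted over these genes by Benjamini-Hochberg, with a threshold of 0.05. The biological coefficient of variation was 21.6%. Members below the filter were tested by exact permutation. The miR-106a-363 genes, MIR32, the ends of the MYC-repressed list and the 5 genes most like the miR-17-92 sum were named by rule. Members and lists were chosen with earlier results of these data known. Replicates differed by more than counting noise (chi-square over its degrees of freedom 2.50 to 32.1 in 12 pairs, highest for A375-BIR DMSO replicate 3). In DMSO, libraries of the same number deviated from their group means in the same sense in both lines (correlations 0.11, 0.22 and 0.30), which held for no other pair of groups, and no label ties a number to a batch. DESeq2 1.42.0, Python 3.11.15, pandas 2.3.3, scipy 1.17.1 and matplotlib 3.10.9 were also used.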

Additional observations from a re-analysis of the deposited data

How the results depend on the processing

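Of 457 log2 fold changes of tested members recomputed under another scaling, filter, test or set of genes, 409 kept their direction and their side of the threshold, as did 526 of 576 recomputed without 1 library. MIR93 and MIR20A over both treatments stayed past the threshold in all 21 alternatives. Of 52 cluster and seed sums under another scaling or with the chromosome X genes added, 45 moved by less than 1 SD. The cluster ratios moved by less than 1 SD in all 12 alternatives, though scaling cannot move a ratio within a library. Leaving out 1 of 3 libraries cannot move a group mean by 1 SD, so the left-out libraries give no such test. Without A375-BIR DMSO replicate 3 that group's mean log2 ratio of miR-17-92 to miR-106b-25 went from −1.37 to −1.82. A block for the replicate number changed no call of a member (MIR93 over both treatments −1.01, adjusted p 0.00382, over a range of 6.04e-14 to 0.0149). Adding MIR17 and MIR106A, chosen after seeing the data, changed none either. DESeq2's Wald test left some genes without an adjusted p, and those have no value. Depth limited MIR18A, MIR19A, MIR19B1, MIR17 and MIR20A, and the causes of the changes below were not tested.

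The scaling moved the median log2 fold change of all tested genes. With total counts it moved by −0.24 for the lines over both treatments, −0.48 in dabrafenib, −0.50 for dabrafenib in A375 and −0.47 for the difference in response. With DESeq2's size factors it moved by 0.11 over both treatments, 0.17 in DMSO, −0.20 for dabrafenib in A375 and −0.12 for the difference. Over both treatments DESeq2's size factors and its Wald test each called 2 members (not MIR17), against 3. DESeq2's size factors and its Wald test each called 0 members between the lines in DMSO, 0 in dabrafenib and 0 for dabrafenib in A375, against 1 each. Total counts called 5 over both treatments, against 3, and 4 in dabrafenib. For dabrafenib in A375, total counts, the filter at 1 CPM and no filter each called 1, MIR106B in place of MIR25. The filter at 1 CPM and no filter each called 2 in dabrafenib. Without the 4 rRNA-like genes 0 were called in DMSO and 0 in dabrafenib. With a library left out the count over both treatments ran from 2 to 3, with MIR17 lost in 6 of 12 fits. It ran from 0 to 1 in each treatment: it was 0 in DMSO without A375-BIR DMSO replicate 1 or 2 or A375 DMSO replicate 3, and 0 in dabrafenib without A375-BIR dabrafenib replicate 2 or 3, A375 DMSO replicate 2, or A375 dabrafenib replicate 2 or 3.

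Signs changed only for values that had not passed the test. With DESeq2's size factors and with its Wald test, MIR25 over both treatments became 0.025 and 0.025, MIR106B in DMSO 0.039 and 0.039, MIR92A2 between the lines in dabrafenib 0.0195 and 0.019, and in the difference in response MIR106B −0.083 and −0.0835 and MIR93 −0.037 and −0.0374. With total counts MIR25 between the lines in dabrafenib became −0.29, and in the difference MIR92A1 −0.28, MIR106B −0.46, MIR93 −0.39 and MIR92A2 −0.20. With the filter at 1 CPM MIR25 in dabrafenib became −0.066, and in the difference MIR92A1 −0.0199, MIR106B −0.17 and MIR93 −0.13. With no filter MIR25 in dabrafenib became −0.068, MIR106B in the difference −0.16 and MIR93 −0.12. A fit of only the libraries compared gave MIR25 −0.028 in dabrafenib, and without the rRNA-like genes the difference was −0.054 for MIR106B and −0.0301 for MIR93.

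Leaving out each library in turn gave log2 fold changes of both signs for these members. Over both treatments MIR92A1 ran from −0.27 to 0.025 and MIR25 from −0.17 to 0.0063. In DMSO MIR92A1 ran from −0.38 to 0.11 and MIR92A2 from −0.41 to 0.017. In dabrafenib MIR18A ran from −2.22 to 0.16, MIR106B from −0.28 to 0.0075 and MIR25 from −0.0042 to 0.35. For dabrafenib in A375 MIR92A1 ran from −0.12 to 0.089, MIR93 from −0.31 to 0.12 and MIR92A2 from −0.11 to 0.0895. For dabrafenib in A375-BIR MIR20A ran from −0.52 to 0.0070, MIR92A1 from −0.31 to 0.087 and MIR93 from −0.66 to 0.11. In the difference in response MIR17 ran from −1.13 to 0.27, MIR18A from −1.33 to 1.05, MIR92A1 from −0.17 to 0.29, MIR106B from −0.16 to 0.15, MIR93 from −0.21 to 0.56 and MIR92A2 from −0.0402 to 0.37.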
